A study of Mus musculus with 9 samples.

Results

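Purine receptors and the enzymes that break down nucleotides outside the cell were examined in mouse bone marrow-derived Mϕs. The 10 members were taken by symbol from a table of 53379 genes: the ATP-gated channels P2rx4 and P2rx7, the P2Y receptors P2ry2, P2ry6, P2ry12, P2ry13 and P2ry14, the adenosine receptor Adora2b and the ectonucleotidases Entpd1 and Entpd3. BM cells of 3 C57BL/6 mice first grew for 3 days in 10 ng/ml MCSF, under which such cells become Mϕs. They then stayed in 10 ng/ml MCSF for 4 more days, alone (control), with 10 ng/ml IL-4 or with 100 ng/ml IL-6, and each condition has 3 libraries numbered 1 to 3. These doses and times are those of the sample labels and the design text. The study's methods name another IL-4 dose, and its figure legends other doses and another time.

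Cells release ATP and UTP when they are activated, stretched or damaged. P2X receptors are cation channels opened by ATP, P2Y receptors couple nucleotides and nucleotide sugars to G proteins, and ectonucleotidases trim ATP and ADP to AMP, from which adenosine, the ligand of the ADORA receptors, is made. In Mϕs, P2X7 is known for driving the NLRP3 inflammasome and the release of IL-1β, and the enzyme pair of CD39 (Entpd1) and CD73 (Nt5e) for making adenosine.

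The values are FPKM, fragment counts scaled by exon length and library depth, and rest on 29988160 to 39909571 fragments per library. Of the 10 members, 9 reached a mean of 0.5 FPKM across all 9 libraries and were tested with limma among the 12824 genes that did. Entpd3 was under that minimum and was taken from the same fit without it. A gene was called where its Benjamini-Hochberg adjusted p was under 0.05 and its log2 fold change, on the log2(FPKM + 0.1) scale, was at least 1 in size. The exact permutation test of 3 libraries against 3 cannot go below p = 0.1, which it gave wherever the groups did not overlap. Socs3, a gene that IL-6 is known to raise, was at 74.7 to 85.5 FPKM with IL-6 and 1.61 to 2.91 in control. Arg1, known to respond to IL-4, was at 730 to 1227 FPKM with IL-4 and 0.409 to 0.718 in control. Over all tested genes the median log2 fold change was -0.20 for IL-4 and -0.00 for IL-6 against control, so a small fall with IL-4 stands close to that of the median gene. Control #1, #2 and #3 and IL-4 #1 held 870 to 1106 fragments of 13 intestinal Paneth and goblet cell genes, and the other 5 libraries 3 to 7. That division and the contrast of IL-6 with control cannot be told apart, since no IL-6 library lies with the controls. Whether the fall or rise of a gene with IL-4 came from fewer cells of one type or from less RNA per cell cannot be told apart in these bulk libraries.

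The level of Adora2b rose with both cytokines, P2ry13 and P2ry12 fell with IL-4 and P2ry14 rose with it, Entpd3 rose with IL-6, and Entpd1 fell with both. Of the 10 members, 5 were called for IL-4 against control, where 13.9% of the 12824 tested genes were called. Of these, 2 were higher and 3 lower, beside 5.02% and 8.89% of tested genes. In the contrast of IL-6 with control 3 were called (5.38% of tested genes), 2 higher (3.49%) and 1 lower (1.89%). Between IL-6 and IL-4 there were 4 calls, all higher with IL-6, where 20.4% of tested genes were called and 13.6% were called higher. Without the minimum on FPKM, under which Entpd3 was tested, 1.61% of 31047 genes were called higher with IL-6 than in control and 6.34% than with IL-4. Of the 9 members tested, 8 had groups that did not overlap between IL-4 and control, 5 between IL-6 and control and 6 between IL-6 and IL-4, beside 40.3%, 43.2% and 56.9% of all tested genes. The median log2 fold change of the 9 was -0.40 with IL-4, 0.21 with IL-6 and 0.30 for IL-6 against IL-4.

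**Figure D1:**
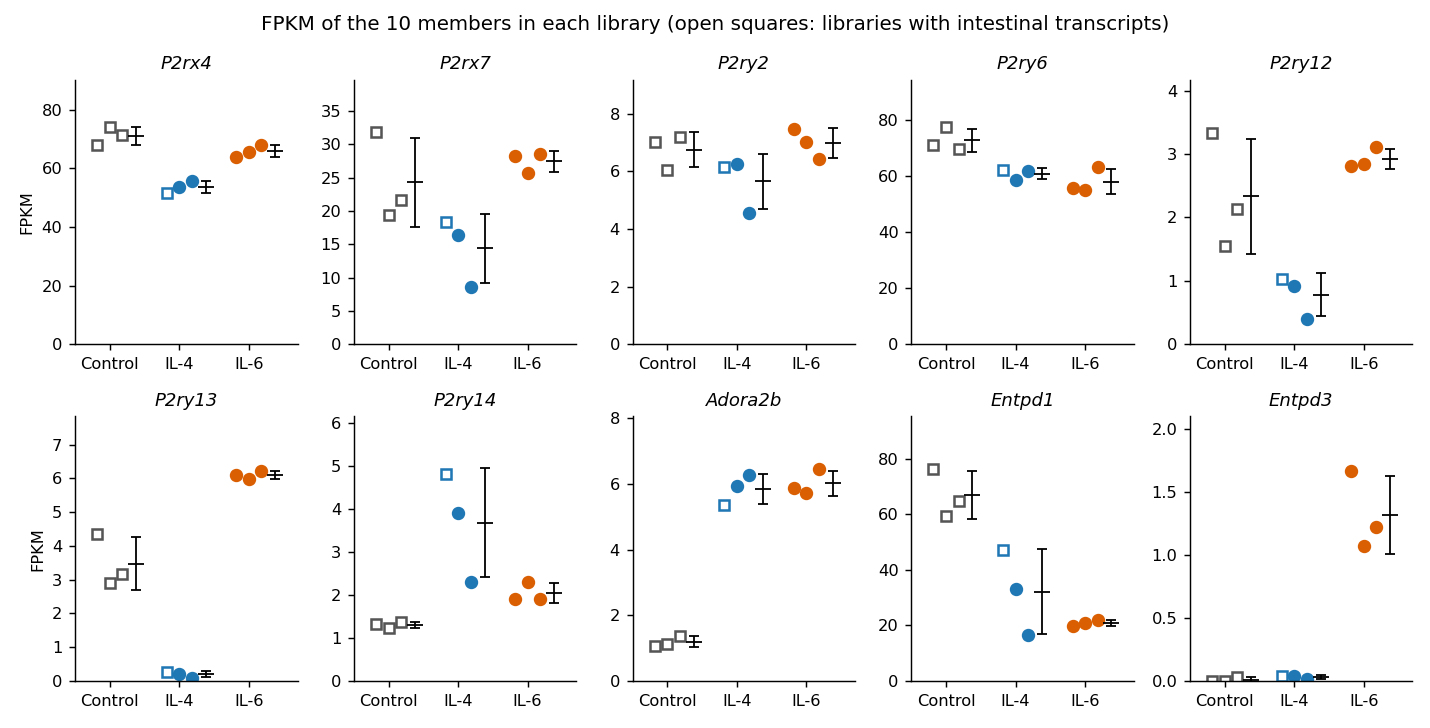
FPKM (vertical axes, from 0) of the 10 members in each of the 9 libraries, by condition, with the mean and SD of 3 libraries in black; open squares mark the 4 libraries with intestinal transcripts. Adora2b is at 1.06 to 1.37 in control and at 5.36 to 6.44 with either cytokine, and P2ry13 is at 0.0991 to 0.278 with IL-4.

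**Figure D2:**
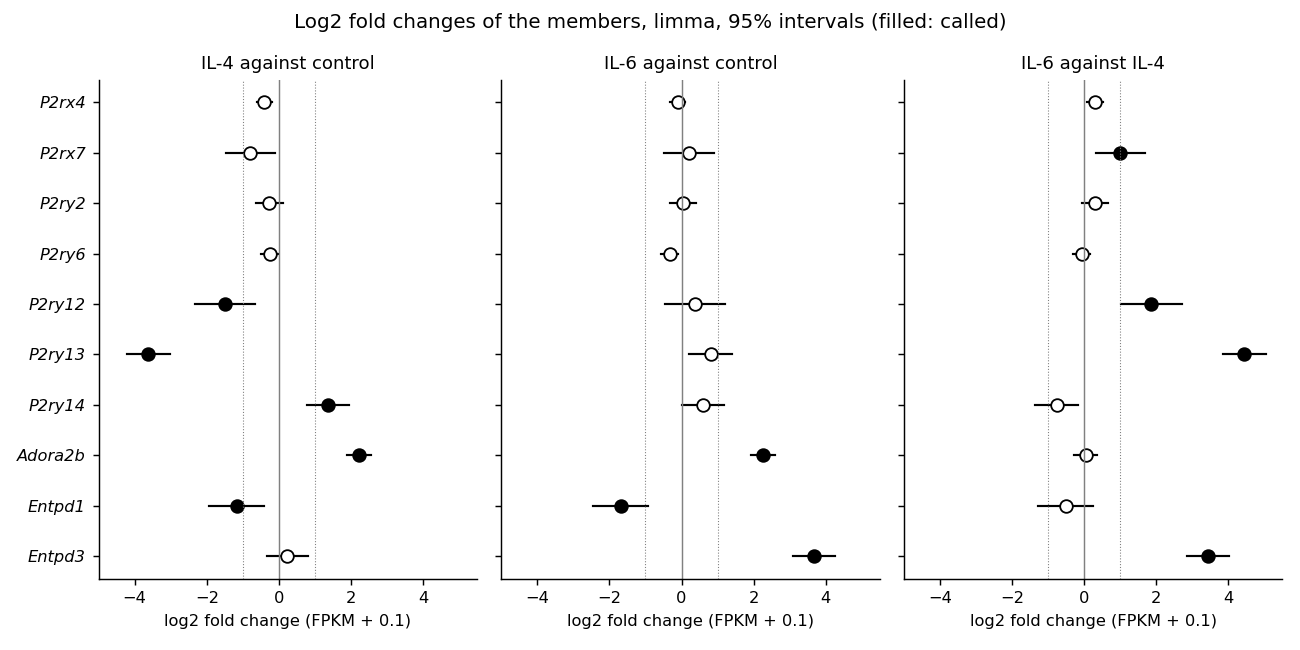
Log2 fold changes of the members on the log2(FPKM + 0.1) scale (horizontal axes) with 95% intervals of the limma fit in the 3 comparisons; filled points were called and dotted lines mark a change of 1. P2ry13 has the lowest value for IL-4 against control (-3.63) and the highest for IL-6 against IL-4 (4.44).

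In 3 places, members lie near each other, which takes in 7 of the 10, and coordinates are those of GENCODE M21 on GRCm38. P2ry14 (chr3:59113855-59153618), P2ry13 (chr3:59207892-59210882) and P2ry12 (chr3:59216272-59262871) lie on the minus strand inside Med12l, which runs the other way. P2ry14 and P2ry13 are 54.3 kb apart, with another protein-coding gene of the same strand between them, and P2ry13 and P2ry12 are 5.4 kb apart. P2rx7 (chr5:122643911-122691432) ends 16.1 kb before P2rx4 (chr5:122707544-122729738), both on the plus strand. P2ry6 (chr7:100937630-100974649) and P2ry2 (chr7:100996568-101012866) are 21.9 kb apart on the minus strand. Adora2b (chr11:62248984-62266453), Entpd1 (chr19:40612366-40741602) and Entpd3 (chr9:120539818-120568327) lie apart from other members, on the plus strand.

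The 250 bases before the start site are shown for the members whose calls the results turn on: the chr3 neighbours, which did not move in 1 direction, and Adora2b and Entpd3, which IL-6 raised. They are RefSeq sequences of GRCm38.p6, read 5′ to 3′ along the gene, and capitals mark CG. P2ry14 is chr3:59153493-59153742 (minus strand, the most upstream of its 4 start sites in the table), P2ry13 chr3:59210883-59211132 (minus), P2ry12 chr3:59262986-59263235 (minus), Adora2b chr11:62248734-62248983 (plus) and Entpd3 chr9:120539568-120539817 (plus).
P2ry14: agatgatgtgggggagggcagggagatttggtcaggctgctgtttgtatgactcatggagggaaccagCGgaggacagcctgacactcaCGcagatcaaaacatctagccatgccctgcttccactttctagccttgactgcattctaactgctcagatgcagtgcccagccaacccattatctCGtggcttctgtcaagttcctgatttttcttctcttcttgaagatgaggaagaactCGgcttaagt
P2ry13: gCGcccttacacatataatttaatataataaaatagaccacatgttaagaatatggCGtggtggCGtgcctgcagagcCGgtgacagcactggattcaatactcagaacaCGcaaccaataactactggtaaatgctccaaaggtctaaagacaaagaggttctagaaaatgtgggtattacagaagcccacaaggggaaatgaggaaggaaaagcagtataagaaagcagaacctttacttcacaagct
P2ry12: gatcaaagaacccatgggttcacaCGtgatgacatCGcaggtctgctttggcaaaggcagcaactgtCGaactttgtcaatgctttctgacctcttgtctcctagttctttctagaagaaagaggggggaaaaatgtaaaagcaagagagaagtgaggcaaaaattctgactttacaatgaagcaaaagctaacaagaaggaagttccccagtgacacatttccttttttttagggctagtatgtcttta
Adora2b: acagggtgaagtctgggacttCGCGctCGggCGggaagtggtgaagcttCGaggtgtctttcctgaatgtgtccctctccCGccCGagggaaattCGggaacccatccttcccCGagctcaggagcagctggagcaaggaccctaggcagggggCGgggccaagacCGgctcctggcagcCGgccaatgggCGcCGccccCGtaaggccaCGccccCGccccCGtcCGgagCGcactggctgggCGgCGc
Entpd3: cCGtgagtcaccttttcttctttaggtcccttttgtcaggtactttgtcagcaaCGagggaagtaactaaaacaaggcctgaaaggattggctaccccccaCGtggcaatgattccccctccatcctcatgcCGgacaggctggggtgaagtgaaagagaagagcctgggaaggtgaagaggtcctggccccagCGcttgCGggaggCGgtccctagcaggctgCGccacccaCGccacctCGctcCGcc

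The chr3 stretches held 3 to 5 CG, Entpd3 11 and Adora2b 22, beside a median of 6 over 32851 start sites. The letters TTC and GAA with 4 or with 3 bases between them, the spacings that STAT6 (downstream of IL-4) and STAT3 (downstream of IL-6) are known to bind, were searched in windows from 250 bases before to 50 after the start. Each reads the same on both strands, and no stretch can match both spacings from the same first base. Neither was found in any of the 15 windows of the 9 members with an entry, while 6.95% of all windows held the spacing of 4 and 8.3% that of 3. No match says only that these letters are not in these windows. P2ry6 had no entry.

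P2rx4, an ATP-gated cation channel, was among the most abundant members. Its FPKM was 67.8, 73.9 and 71.2 in Control #1, #2 and #3, 51.6, 53.6 and 55.6 under IL-4, and 63.9, 65.6 and 68.0 under IL-6. The IL-4 libraries were the lowest, below every control and every IL-6 library, while IL-6 and control overlapped. With IL-4 the log2 fold change was -0.40 (SE 0.09, limma adjusted p = 0.0158), under the size needed for a call, and after rescaling each library by its median ratio it was -0.20 (limma adjusted p = 0.367). For IL-6 against control it was -0.11 (95% interval -0.32 to 0.11).

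P2rx7, the ATP-gated channel that needs high ATP to open, was at 31.9, 19.3 and 21.6 FPKM in control, 18.3, 16.4 and 8.52 under IL-4, and 28.2, 25.6 and 28.6 under IL-6. Every IL-4 library lay below every other library and IL-4 #3 lay far below the rest, while IL-6 lay within the control range. IL-4 against control gave -0.79 (SE 0.30, limma adjusted p = 0.0892), which was not called, and IL-6 against IL-4 gave 1.00 (SE 0.30, limma adjusted p = 0.0329), called at the very edge of the fold minimum. That call was lost in 11 of 21 alternatives: the log2 fold change was 0.66 without IL-4 #3, 1.00 without Control #3 (limma adjusted p = 0.0537), and 0.98, 1.05 and 0.97 without IL-6 #1, #2 and #3 (limma adjusted p = 0.093, 0.0748 and 0.0937). Without IL-4 #1, the fall with IL-4 became a call, at the edge of both limits (limma adjusted p = 0.0493).

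P2ry2, the Gq-coupled receptor for ATP and UTP, did not pass the test in any comparison. It was at 7.01, 6.05 and 7.19 FPKM in control, 6.14, 6.26 and 4.54 under IL-4, and 7.47, 7.03 and 6.42 under IL-6. IL-4 and IL-6 both overlapped control, and the log2 fold changes were -0.26 (95% interval -0.63 to 0.10) and 0.05 (-0.32 to 0.41).

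P2ry6, the UDP receptor known for its part in phagocytosis by microglia, had the highest mean FPKM in control. It was at 71.0, 77.3 and 69.4 FPKM in control, 62.0, 58.4 and 61.6 under IL-4, and 55.8, 55.0 and 63.0 under IL-6. All 6 treated libraries were below all controls, and IL-4 and IL-6 overlapped. The log2 fold changes were -0.26 (SE 0.10, limma adjusted p = 0.11) with IL-4 and -0.33 (SE 0.10, limma adjusted p = 0.106) with IL-6, neither called.

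P2ry12, P2ry13 and P2ry14 form the Gi-coupled branch of the P2Y family, the first and second bound by ADP and P2ry14 by UDP-glucose. In Mϕs with IL-4, P2ry12 and P2ry13 fell and P2ry14 rose, though all 3 lie within 149.0 kb of chromosome 3.

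P2ry13 was at 4.36, 2.92 and 3.16 FPKM in control (221 to 385 fragments), 0.278, 0.209 and 0.0991 with IL-4 (10 to 24 fragments), and 6.11, 5.98 and 6.22 with IL-6. The groups did not overlap in any comparison, with IL-4 lowest and IL-6 highest. Mean FPKM fell 17.8-fold with IL-4, from 3.48 ± 0.78 to 0.195 ± 0.090 (SD, n = 3). The log2 fold change was -3.63 (SE 0.26, limma adjusted p = 4.36e-05), and that of IL-6 against IL-4 was 4.44 (SE 0.26, limma adjusted p = 9.83e-06). Both calls were kept in all 20 alternatives that gave a value. Within the libraries with intestinal transcripts, IL-4 #1 was 12.5-fold below the mean of the 3 controls. For IL-6 against control the log2 fold change was 0.82 (SE 0.26, limma adjusted p = 0.106), which was not called.

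P2ry12, known as the receptor that clopidogrel blocks on platelets and as a marker of microglia, was less abundant. It was at 3.33, 1.55 and 2.13 FPKM in control, 1.02, 0.920 and 0.394 under IL-4, and 2.81, 2.84 and 3.11 under IL-6. The IL-4 libraries were the lowest, and IL-6 lay inside the control range. Mean FPKM was 3.00-fold lower with IL-4 than in control, at a log2 fold change of -1.49 (SE 0.36, limma adjusted p = 0.019), and IL-6 against IL-4 gave 1.87 (SE 0.36, limma adjusted p = 0.00548). The second call was kept in all 20 alternatives that gave a value, while the first was lost in 5. Without Control #1 it was -1.21 (limma adjusted p = 0.0677), without Control #3 -1.52 (limma adjusted p = 0.0574), and with the division by intestinal transcripts as a term -1.05 (limma adjusted p = 0.251). The microglia markers Tmem119, Cx3cr1 and Gpr34 had means of 1.46, 2.79 and 6.45 FPKM in control, and Sall1, which defines microglia, was at 0 in 8 of 9 libraries.

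P2ry14 was at 1.33, 1.23 and 1.37 FPKM in control, 4.81, 3.91 and 2.31 under IL-4, and 1.91, 2.30 and 1.90 under IL-6. All IL-4 libraries were above all controls and all IL-6 libraries, by the least in IL-4 #3, and the IL-6 libraries were also all above control. The rise with IL-4 was 2.81-fold in mean FPKM, at a log2 fold change of 1.36 (SE 0.25, limma adjusted p = 0.00599), and 1 of 20 alternatives ended the call, with 0.98 at a pseudocount of 1. IL-4 #1 was 3.67-fold above the mean of the controls. For IL-6 the log2 fold change was 0.60 (SE 0.25, limma adjusted p = 0.227). IL-6 against IL-4 gave -0.76 (SE 0.25, limma adjusted p = 0.049), which became a call without IL-4 #3 at -1.06.

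With IL-4, 8 of 9 granulocyte markers, 4 of 8 macrophage markers, 3 of 5 tested microglia markers, 3 of 7 megakaryocyte and platelet markers and 2 of 3 tested dendritic cell markers were also called lower, and all 4 tested mast cell and basophil markers higher. Between IL-6 and IL-4, where P2ry12 and P2ry13 were called higher with IL-6, so were 9 of 9 granulocyte, 7 of 7 megakaryocyte and platelet, 4 of 5 microglia, 4 of 8 macrophage and 2 of 3 dendritic cell markers, and the 4 mast cell and basophil markers were called lower. Summed FPKM of the granulocyte list was 2137 to 3978 with IL-4 against 4741 to 8459 in control, that of the macrophage list 6115 to 7100 against 16607 to 18883, and that of the mast cell and basophil list 29.1 to 46.9 against 5.31 to 11.5, with Tpsb2 and Mcpt4 at 0 throughout. The part of these cells in the results of the P2Y genes (P2ry1, below, included), Adora2b and Entpd1 was not tested.

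Of the other marker lists, summed FPKM of B cell genes was 28.0 to 50.6 in control, 23.2 to 31.3 under IL-4 and 19.8 to 33.2 under IL-6. T and NK cell genes were at 0.741 to 0.970, 2.67 to 3.36 and 1.03 to 1.30 in that order, dendritic cell genes at 5.67 to 6.61, 1.42 to 3.18 and 3.63 to 7.54, and stromal and endothelial genes at 3.09 to 3.59, 2.19 to 3.99 and 4.76 to 7.92.

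**Figure D3:**
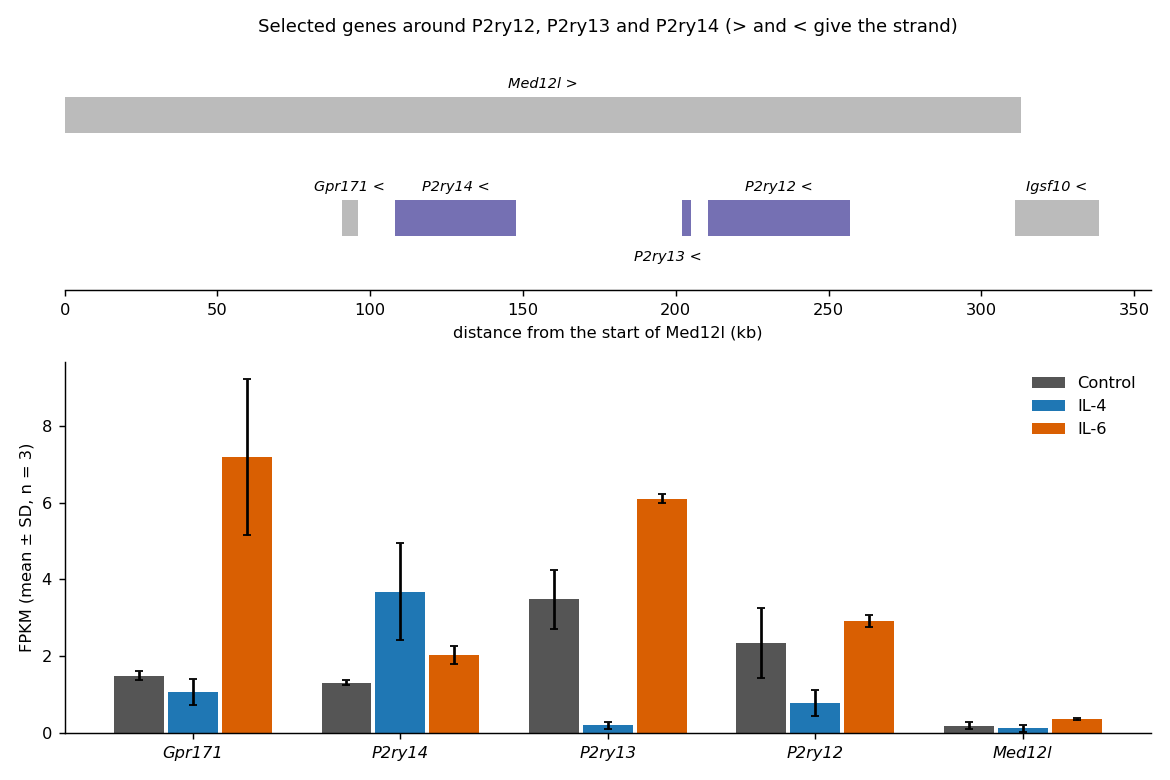
Above, selected genes around P2ry12, P2ry13 and P2ry14 by distance in kb from the start of Med12l, members in violet; below, mean FPKM with SD of 3 libraries (vertical axis) in each condition. P2ry13 and P2ry12 are lowest with IL-4, P2ry14 is highest with IL-4, and Gpr171 is highest with IL-6.

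Gpr171, next to P2ry14 and on the same strand, was at 5.01 to 9.01 FPKM with IL-6 and 1.37 to 1.60 in control, at a log2 fold change of 2.16 (limma adjusted p = 0.00282), and -0.50 with IL-4 (limma adjusted p = 0.229). Med12l, under the minimum for the test, had a mean FPKM of 0.190 in control, against 0.116 under IL-4 and 0.357 under IL-6. The means of Gpr171, at 1.49, 1.06 and 7.19 FPKM, had the same order as those of Med12l, P2ry12 and P2ry13, lowest with IL-4 and highest with IL-6. Control and IL-4 libraries overlapped for Gpr171 (1.37 to 1.60 against 0.743 to 1.42) and for Med12l (0.115 to 0.281 against 0.0236 to 0.184). For P2ry12, IL-6 lay inside the control range. Med12l shares 9 exon bases with P2ry12 on the other strand and none with P2ry13 or P2ry14. Of 23 protein-coding neighbours within 100 kb of any member, 15 were tested, and 1 was called for IL-4 against control (Aldh18a1, near Entpd1), 2 for IL-6 against control (Relt and Gpr171) and 5 for IL-6 against IL-4 (Fchsd2, Relt, Gpr171, Aldh18a1 and Ccnj). Over all tested genes, 13.9%, 5.38% and 20.4% were called in these comparisons, so counts this small out of 15 are a description only.

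Adora2b, the low-affinity Gs-coupled adenosine receptor, rose with both cytokines. It was at 1.06, 1.14 and 1.37 FPKM in control (63 to 89 fragments), 5.36, 5.94 and 6.26 under IL-4, and 5.89, 5.71 and 6.44 under IL-6. All 6 treated libraries lay above all controls, while IL-4 and IL-6 overlapped. The rise was 4.92-fold with IL-4 (log2 fold change 2.21, SE 0.14, limma adjusted p = 2.51e-05) and 5.05-fold with IL-6 (2.25, SE 0.14, limma adjusted p = 9.63e-05). The difference between the cytokines was 0.04 (95% interval -0.29 to 0.37). Both rises were kept in all 20 alternatives that gave a value. With the division by intestinal transcripts as a term the values were 2.09 with IL-4 and 2.07 with IL-6. That term cannot separate the division from IL-6 against control, since no IL-6 library lies with the controls. IL-4 #1, which does, stood 4.51-fold above the mean of the controls.

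Entpd1 encodes CD39, which hydrolyses ATP and ADP to AMP, and was called lower with either cytokine. It was at 76.3, 59.4 and 64.9 FPKM in control, 47.0, 33.0 and 16.4 under IL-4, and 19.7, 20.7 and 21.8 under IL-6. All 6 treated libraries were below all controls; the IL-6 libraries lay close together, and the IL-4 libraries spread from above to below them. The log2 fold changes were -1.17 with IL-4 (SE 0.33, limma adjusted p = 0.0343) and -1.68 with IL-6 (SE 0.33, limma adjusted p = 0.0189). IL-6 against IL-4 gave -0.51 (SE 0.33, limma adjusted p = 0.25).

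The calls of Entpd1 were lost when most single libraries were left out. For IL-4 the call was lost without each of 8 libraries, IL-4 #1 being the exception: the value was -0.75 without IL-4 #3 and -1.26 without IL-4 #2, and -1.07, -1.25 and -1.19 without Control #1, #2 and #3. It stayed at -1.17 without IL-6 #1, #2 or #3, at limma adjusted p = 0.0576, 0.0596 and 0.0588. For IL-6 the call was lost without Control #1, #2 or #3 (-1.58, -1.76 and -1.70) and without IL-6 #1, #2 or #3 (-1.64, -1.68 and -1.71), at limma adjusted p from 0.0584 to 0.0771. It was kept without IL-4 #1, #2 or #3, at limma adjusted p as low as 0.000231. The fit shares its estimate of the spread across conditions, so the spread of the IL-4 libraries enters the contrast of IL-6 with control. The size of the fall with IL-6 thus changed little, from -1.76 to -1.58, whichever library was left out. With the division by intestinal transcripts as a term, the values were -0.50 (limma adjusted p = 0.476) and -0.67 (limma adjusted p = 0.345). IL-4 #1, the treated library that shares the controls' intestinal transcripts, had the highest level of the 6, 1.42-fold below the mean of the controls. For IL-6, the division and the treatment cannot be told apart.

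Entpd3 encodes a related enzyme of the cell surface. Its fragments numbered 0, 0 and 4 among the controls, 5, 4 and 2 under IL-4, and 218, 131 and 141 under IL-6. That is 1.66, 1.07 and 1.22 FPKM with IL-6 and at most 0.0390 in any other library. The IL-6 libraries stood apart from all others, and the rest lay near the floor of 3 fragments. Scaled by depth, the summed 490 fragments with IL-6 were 125 times the 4 of control, with an exact 95% interval of 48.4 to 459 that covers counting error only. The fitted log2 fold changes were 3.68 (SE 0.25, limma adjusted p = 0.000315) against control and 3.44 (SE 0.25, limma adjusted p = 7.29e-05) against IL-4, which depend on the pseudocount and are no bound. Both were called in all 19 alternatives that gave a value, though the library division as a term cannot separate the division from IL-6 against control. Even with IL-6, Entpd3 was below Entpd1, at 1.32 ± 0.31 against 20.7 ± 1.0 FPKM (SD, n = 3).

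With IL-6, 5 of 7 megakaryocyte and platelet markers were also called higher, beside 3.49% of all tested genes. Summed FPKM of the 7 markers was 250 to 478 with IL-6, 55.7 to 86.1 in control and 21.8 to 42.8 with IL-4, and none of the 7 was at 0. Its part in the rises of Entpd3, Adora2b and the receptors named next was not tested.

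FPKM divides by the length of all annotated exons of a gene, so levels are set side by side with the limit that ranks also depend on that length. P2ry14, at 11059 bases, had 409 to 532 fragments per control library and P2ry13, at 2528 bases, 221 to 385, though P2ry14 has the lower FPKM. Which transcripts of a gene were present was not tested. P2ry6, P2rx4 and Entpd1 made up 84.2% of the summed mean FPKM of the 10 members in control, and 82.7% and 73.2% under IL-4 and IL-6. Entpd1 alone held 26.8% of that sum in control, 18.2% under IL-4 and 10.5% under IL-6. In the order of means, P2ry6 (72.6 ± 4.2), P2rx4 (71.0 ± 3.1) and Entpd1 (66.9 ± 8.6) did not differ beyond their spread in control, P2rx7 followed at 24.3 ± 6.7 and P2ry2 at 6.75 ± 0.62 (SD, n = 3). P2ry13 and P2ry12 followed at 3.48 and 2.33 with overlapping libraries, then P2ry14 and Adora2b at 1.31 and 1.19, also overlapping, and Entpd3 was last. With IL-4, Adora2b (5.85 ± 0.46) stood at rank 5 of 10 beside P2ry2, with which it overlapped, and P2ry13 at rank 9. With IL-6, P2rx7 stood above Entpd1 without overlap, and P2ry13 and Adora2b overlapped at ranks 6 and 7.

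Other genes of purine signalling fell into 5 lists of 65 genes, of which 41 were tested. With IL-4, 9 were called against control (2 higher, 7 lower), and with IL-6 7, all higher. Between the cytokines 16 were called, 14 higher with IL-6 and 2 lower. These are 22.0%, 17.1% and 39.0% of the 41, beside 13.9%, 5.38% and 20.4% of all tested genes, and the lists were written with results of these data known. Their median log2 fold changes were -0.24, 0.27 and 0.33, beside -0.20, -0.00 and 0.22 over all tested genes.

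**Figure D4:**
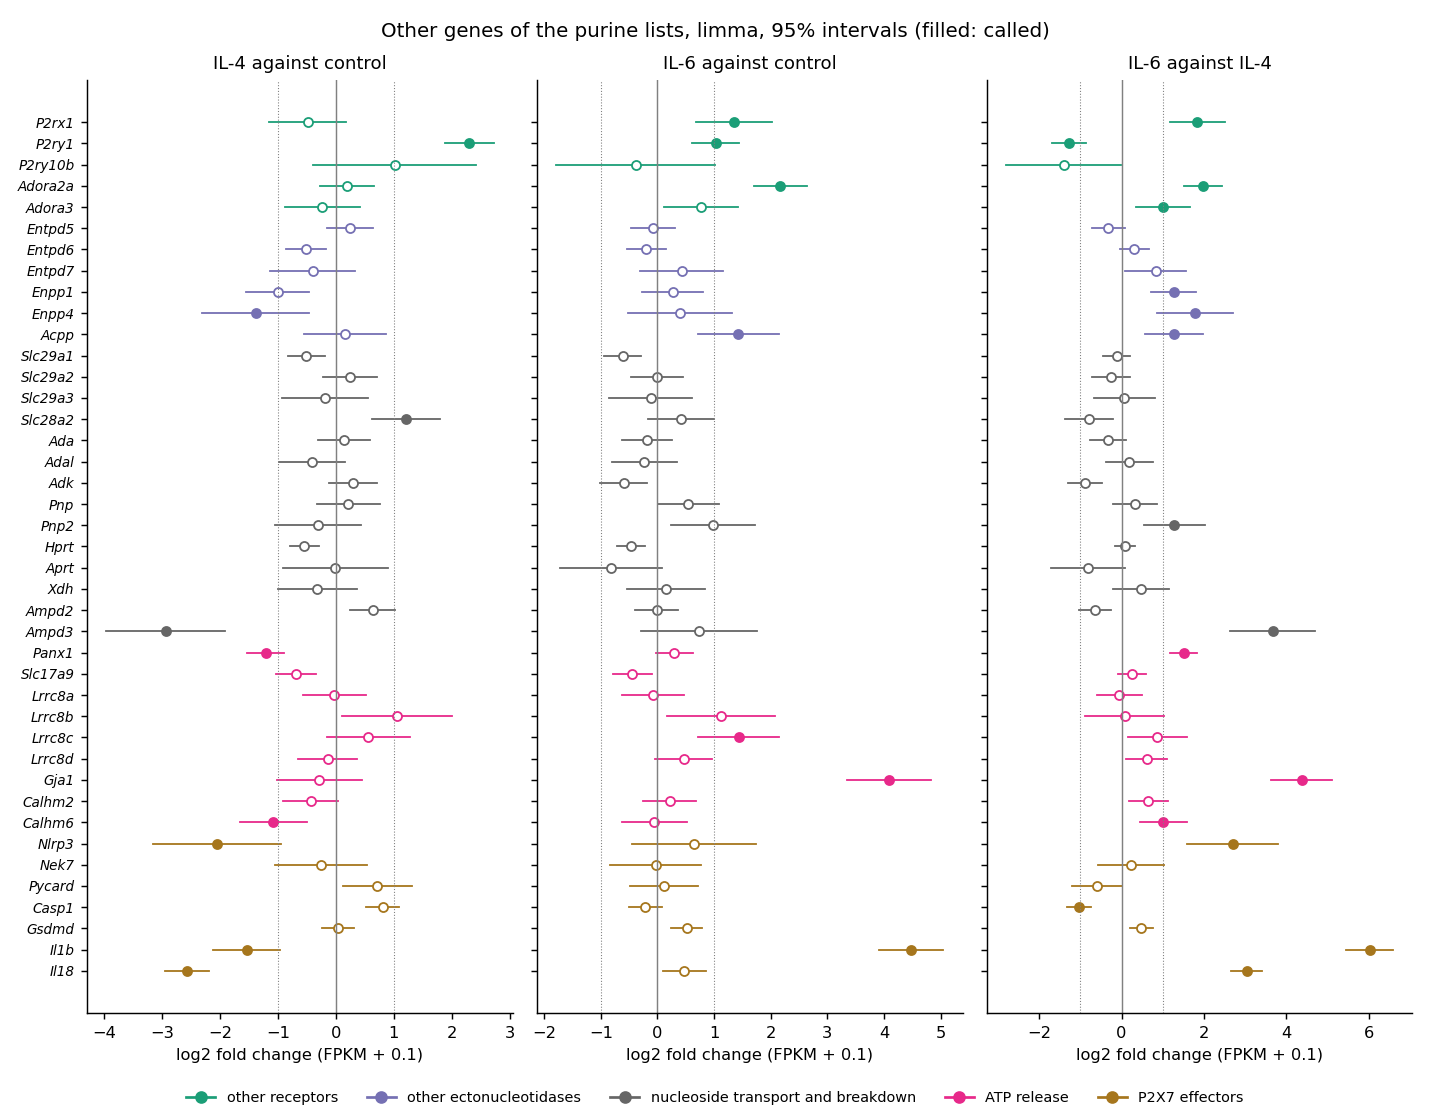
Log2 fold changes on the log2(FPKM + 0.1) scale (horizontal axes), with 95% limma intervals, of the 41 tested genes of the other purine lists, coloured by list; filled points were called. Il1b reaches 4.47 with IL-6 against control and 6.01 against IL-4, and Ampd3 lies at -2.93 with IL-4.

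Among 12 other purine receptors, 5 were tested. P2ry1, the Gq-coupled ADP receptor, rose with IL-4 from 1.50, 1.26 and 1.62 to 8.39, 7.34 and 7.01 FPKM (log2 fold change 2.30, SE 0.18, limma adjusted p = 7.19e-05). With IL-6 it was at 2.42, 3.53 and 3.38 FPKM, between control and IL-4 with no overlap. IL-6 against control gave 1.03 (SE 0.18, limma adjusted p = 0.0114), lost in 8 alternatives, with 0.93 without Control #2 or IL-6 #2 and 0.96 without IL-6 #3. IL-6 against IL-4 gave -1.27 (SE 0.18, limma adjusted p = 0.00113). So of the ADP receptors P2ry1 was higher with IL-4, and P2ry12 and P2ry13 lower. Adora2a, the high-affinity Gs-coupled adenosine receptor, was at 0.440, 0.555 and 0.456 FPKM in control, 0.497, 0.539 and 0.671 under IL-4, and 2.91, 2.34 and 2.33 under IL-6. IL-6 stood above both other groups, at a log2 fold change of 2.17 against control (SE 0.20, limma adjusted p = 0.000538), which with the division by intestinal transcripts as a term was 1.93 (limma adjusted p = 0.0569). For IL-4 against control, the log2 fold change of Adora2a was 0.19 (95% interval -0.27 to 0.66, limma adjusted p = 0.521). P2rx1 was also called higher with IL-6, and P2rx1 and Adora3 for IL-6 against IL-4; these and the further genes in this and the next paragraph that are given without values are named to complete counts, after their values were seen.

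Among 16 other ectonucleotidases, 6 were tested: Enpp4 was called lower with IL-4, Acpp higher with IL-6, and Enpp1, Enpp4 and Acpp higher for IL-6 against IL-4. Nt5e, which makes adenosine from AMP, was under the minimum, with means of 0.309, 0.119 and 0.622 FPKM in control, IL-4 and IL-6. Entpd4 was listed at 0 in all 9 libraries and has a near-identical copy, Entpd4b, so its level is uncertain. Of 14 tested genes of nucleoside transport and breakdown, Slc28a2, a sodium-driven nucleoside carrier, rose with IL-4 from 4.32, 3.68 and 4.60 to 13.7, 10.6 and 6.40 FPKM (log2 fold change 1.21, SE 0.25, limma adjusted p = 0.0106; 0.96 without IL-4 #1). Ampd3, which deaminates AMP, fell with IL-4, from 15.8, 10.5 and 12.6 to 2.45, 2.42 and 0.650 FPKM, and was at 19.1 to 25.3 FPKM with IL-6. Ampd3 had a log2 fold change of -2.93 for IL-4 against control (SE 0.45, limma adjusted p = 0.00221) and 3.66 for IL-6 against IL-4 (SE 0.45, limma adjusted p = 0.000509). Pnp2 was the other gene called higher in that comparison. Of 9 tested genes of ATP release, Gja1 (connexin 43) rose with IL-6 from 0.134, 0.0520 and 0.0611 to 2.94, 2.44 and 3.53 FPKM (log2 fold change 4.08, SE 0.32, limma adjusted p = 0.000241), and Lrrc8c was called too. Gja1 reached the minimum of 0.5 FPKM through its IL-6 libraries alone, with means of 0.0824 FPKM in control and 0.0483 with IL-4. Its fold changes thus depend on the pseudocount and are no bound, as for Entpd3, and its calls enter the counts of the lists. Panx1, the ATP channel, and Calhm6 were called lower with IL-4, and both, with Gja1, higher for IL-6 against IL-4.

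The genes that act downstream of P2X7 were all tested, 7 of 7. Il1b, the cytokine whose release it is known to drive, was at 3.76, 3.74 and 2.14 FPKM in control, 0.767, 1.19 and 1.10 under IL-4, and 65.6, 69.5 and 79.6 under IL-6. None of the groups overlapped, and the log2 fold changes were -1.54 with IL-4 (SE 0.25, limma adjusted p = 0.00303) and 4.47 with IL-6 (SE 0.25, limma adjusted p = 4.98e-05). Nlrp3, the inflammasome sensor, fell with IL-4 from 24.4, 15.4 and 16.1 to 7.47, 5.96 and 1.79 FPKM (log2 fold change -2.05, SE 0.48, limma adjusted p = 0.0158), but without Control #1 it was -1.84 (limma adjusted p = 0.0624) and with the division by intestinal transcripts as a term -1.27 (limma adjusted p = 0.244). Il18 fell with IL-4 from 14.1, 21.1 and 19.4 to 3.24, 2.66 and 3.01 FPKM (log2 fold change -2.56, SE 0.17, limma adjusted p = 2.51e-05). Casp1, the protease that cuts both cytokines, went the other way between the cytokines: it was at 99.6, 81.6 and 97.1 FPKM under IL-4, and 45.0, 47.4 and 43.7 under IL-6. For IL-4 against control it was not called, but became a call under median-ratio rescaling (1.01, limma adjusted p = 0.00417). IL-6 against IL-4 gave -1.03 for Casp1 (SE 0.13, limma adjusted p = 0.000485), and the value was -0.97 without IL-4 #1 and -0.99 without IL-4 #3, under the size for a call, as it was by less than 0.01 without IL-6 #3. That call was also lost under quantile scaling (-0.88), with the library division as a term (-0.97) and with length and GC trends removed (-0.95). Il1b, Il18 and Nlrp3 were called higher for IL-6 against IL-4.

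Over the 9 libraries, P2rx7 and P2ry12 had the closest profiles of any pair of the 9 tested members (Entpd3 was left out), with a Pearson r of 0.97 on the log2 scale, and P2ry12 and P2ry13 had 0.95. P2rx4 and P2ry14 ran opposite, at -0.92, as did Adora2b and P2ry6 at -0.88 and Adora2b and Entpd1 at -0.87. The points share 3 conditions and the division of the libraries, so these are descriptions. Among the 12824 tested genes, those most like P2ry13 were Usp35, Ogfrl1 and Ikbke (r of 0.996 to 0.998), and those most like P2ry12 were Slc2a9, Zscan29 and Nbeal2 (0.992 to 0.993). For P2ry14 they were Slc28a2, Cyb5b and Nabp1 (0.985 to 0.989). For Adora2b they were Ankrd66, Vamp4 and Nfil3 (0.980 to 0.988), and for Entpd1 BC005537, Dusp22 and Slc37a2 (0.977 to 0.989). P2rx7 was closest to 2700049A03Rik, Pnpla6 and Notch1 (0.994), P2rx4 to Rnf167, Tmem150a and Pitpna (0.991 to 0.993), P2ry2 to Ccdc66, Abraxas2 and Ubxn4 (0.973 to 0.983), and P2ry6 to Snx15, Rpusd1 and Tmem273 (0.932 to 0.945).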

How the data were processed

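mRNA of mouse BM-derived Mϕs was sequenced from 9 stranded libraries, 3 for each condition. The authors deposited FPKM per gene and library. Their methods and processing notes name STAR 2.4.2a, GRCm38 and Cufflinks 2.2.1. Whether strand was used in counting is not stated, so reads of P2ry12 and of Med12l on the other strand cannot be told apart in their shared exon bases. Gene identifiers matched GENCODE M21, version included, for 94.8% of 53379 genes, and values up to 1000 fragments came out as whole fragments over M21 exon lengths (100.0% of 141432 within 0.05), from which depth was read. The methods name GENCODE M5, so the annotation behind the table is not settled. A floor of 3 fragments per library covers counting error only.

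FPKM were fitted as log2(FPKM + 0.1) with limma 3.58.1 in R 4.3.3 (3 groups, trend and robust eBayes, Benjamini-Hochberg over all tested genes), after tests on simulated data. Alternatives were pseudocounts of 1 and 0.01, no minimum or a mean FPKM of 5, median-ratio and quantile scaling, only the groups compared, the replicate number as a block, plain eBayes, adjusted p alone, the library division as a term, voom on the recovered fragments, leaving out each library and, added after the data were seen, removal of length and GC trends (splines with 5 degrees of freedom). The division separates libraries with 20 or more fragments of intestinal genes from those with fewer.

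The members and lists were chosen with earlier results of these data known. Text names all members, the 3 largest called rises and falls without overlap in the other purine lists per comparison, the 3 tested genes most like each member, neighbours, and Socs3 and Arg1. Among the 23 neighbours counted, 1 gene is not reported by name. The design text names 3 mice, and the numbers 1 to 3 were taken to mark them. The correlation of their deviations from the group means was 0.521, -0.415 and 0.0777 for control with IL-4, 0.408, 0.201 and 0.166 for control with IL-6, and 0.281, -0.0612 and 0.153 for IL-4 with IL-6. The limma p-values measure the spread between the 3 libraries within conditions, as 1 estimate shared by the 3 conditions. A p-value for IL-6 against control thus also carries the spread of the IL-4 libraries. Python 3.11.15, pandas 2.3.3, scipy 1.17.1 and matplotlib 3.10.9 were used.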

Additional observations from a re-analysis of the deposited data

How the results depend on the processing

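For the members, the counts of calls were 5, 3 and 4 for IL-4 against control, IL-6 against control and IL-6 against IL-4. With a mean FPKM of at least 5 they were 1, 1 and 1, since members below it have no value there. For IL-4 against control the count was also 3 with a pseudocount of 1, 3 with only the groups compared and 3 with the library division as a term; leaving out 1 library gave 3 to 6, the lowest without Control #1 or Control #3. For IL-6 against control leaving out 1 library gave 2 to 3. Over all tested genes, 1784, 690 and 2613 were called. The counts were 847, 306 and 1219 with a mean FPKM of at least 5 (fewer genes tested), 3186, 1077 and 4375 with adjusted p alone, and 1111 and 187 for the cytokines against control with the library division as a term. Leaving out 1 library gave 387 to 1001 for IL-6 against control, with the lowest counts without Control #3 (387), IL-6 #3 (408), IL-6 #2 (424) and Control #2 (445). For the other purine genes, with 9, 7 and 16 calls, the count was 16 for IL-4 with adjusted p alone. For IL-6 against control it was 4 with no minimum, 1 with a mean FPKM of at least 5 and 2 with the library division, and leaving out 1 library gave 3 to 8, with 4 without Control #1 or Control #3 and 3 without Control #2, IL-6 #2 or IL-6 #3. For IL-6 against IL-4 it was 7 with a mean FPKM of at least 5. Rescaling by the median ratio moved the share of higher calls over all genes from 36.1% to 49.1% for IL-4 and from 66.5% to 52.3% for IL-6 against IL-4, and quantile scaling to 46.3% and 53.0%; among the other purine genes these shares went from 22.2% to 40.0% and 33.3%, and from 87.5% to 68.8% and 69.2%, and the share of members higher for IL-6 against IL-4 from 100.0% to 75.0% under quantile scaling. With the replicate block, pairing same-numbered libraries, 5, 3 and 4 members and 1788, 656 and 2734 of all genes were called, and no call of a member changed; among the other purine genes 8, 6 and 16 were called. Of the 12 calls of members, 7 were kept in every alternative that gave a value. No named gene was reversed, leaving aside uncalled values that changed sign where the main or the alternative value was smaller than its SE. For IL-6 against IL-4, P2ry6 went from -0.07 to as high as 0.16, and Adora2b from 0.04 to as low as -0.19. Apart from the fewer genes tested or fewer libraries that an alternative brings, the cause was not tested.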
